A study of Mus musculus with 18 samples.

Results

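The long-chain acyl-CoA synthetases Acsl1, Acsl3, Acsl4 and Acsl5 were followed in mouse liver through every array probe whose gene name in the scanner files was one of these 4. The arrays hold 27845 gene names, clone names included, and the rule gave 7 of 41174 probes: 3 for Acsl1, 1 for Acsl3, 2 for Acsl4 and 1 for Acsl5. The livers came from male CD-1 mice, an outbred stock, that were 9 weeks old and had eaten powdered diet for 28 days. Bisphenol A, from which polycarbonate plastic is made, was absent from the control diet. It was given at 50 µg per kg per day in the low-dose group, which the labels equate with the tolerable daily intake, and at 5000 µg per kg in the high-dose group, equated with the no-observed-adverse-effect level. Each group had 6 mice, and the RNA of each mouse was hybridised to an array of its own with the dye Cy3. In whole liver, fewer cells of a type and less RNA per cell cannot be told apart.

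Acyl-CoA synthetases join a fatty acid to coenzyme A at the cost of ATP, the step that commits it to oxidation in mitochondria and peroxisomes or to storage in triacylglycerol and phospholipid. Acsl1 is the main liver isoform, sits on the endoplasmic reticulum and the outer mitochondrial membrane, and is a known target of the fatty acid receptor PPARα. Acsl3 sits on the endoplasmic reticulum and on lipid droplets, Acsl4 prefers arachidonic and other polyunsaturated acids, and Acsl5 serves fatty acids for glycerolipid synthesis.

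The sequences before the annotated starts of Acsl1, Acsl3 and Acsl5 are printed below, and that of Acsl4 is only summarised. They are the 250 bases upstream of each start in the gene's own direction, from RefSeq on GRCm38.p6. Capitals mark matches, on either strand, to 5 motifs that were searched. These were CACGTG (E-box), AGGTCA (nuclear receptor element), TCACNCCAC (sterol regulatory element), CCAAT (bound by NF-Y) and GGGCGG (GC box). Matches that touch run together in capitals.
Acsl1 start 1, chr8:46470787-46471036, plus strand: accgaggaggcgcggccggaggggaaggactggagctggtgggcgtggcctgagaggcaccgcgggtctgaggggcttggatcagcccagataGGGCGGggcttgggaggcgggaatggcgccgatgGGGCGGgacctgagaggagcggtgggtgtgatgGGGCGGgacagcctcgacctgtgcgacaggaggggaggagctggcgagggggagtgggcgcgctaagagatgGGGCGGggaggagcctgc
Acsl1 start 2, chr8:46490716-46490965, plus strand: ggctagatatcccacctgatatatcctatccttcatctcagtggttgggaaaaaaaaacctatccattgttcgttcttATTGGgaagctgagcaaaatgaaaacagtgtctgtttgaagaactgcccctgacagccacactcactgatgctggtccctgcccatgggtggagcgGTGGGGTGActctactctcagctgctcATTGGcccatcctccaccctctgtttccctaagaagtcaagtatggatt
Acsl3, chr1:78657575-78657824, plus strand: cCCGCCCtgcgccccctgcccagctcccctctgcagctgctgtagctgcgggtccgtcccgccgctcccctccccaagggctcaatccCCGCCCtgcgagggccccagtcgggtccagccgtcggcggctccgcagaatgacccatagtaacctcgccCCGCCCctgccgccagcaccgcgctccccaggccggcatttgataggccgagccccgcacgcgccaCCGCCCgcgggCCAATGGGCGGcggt
Acsl5, chr19:55253119-55253368, plus strand: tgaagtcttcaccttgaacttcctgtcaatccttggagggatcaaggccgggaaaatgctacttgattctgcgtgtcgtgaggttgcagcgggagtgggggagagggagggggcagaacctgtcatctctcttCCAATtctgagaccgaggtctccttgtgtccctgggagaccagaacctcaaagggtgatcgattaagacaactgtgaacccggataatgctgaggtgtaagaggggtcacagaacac
Acsl1 start 1 is 72.0% G or C with 4 GC boxes, and start 2 is 48.4% G or C with 1 match to the sterol regulatory element and 2 to CCAAT. Acsl3 is 75.6% G or C with 5 GC boxes and 1 CCAAT, and Acsl5 is 52.8% G or C with 1 CCAAT. Acsl4, whose window lies on the minus strand of chromosome X, is 70.8% G or C with 2 GC boxes. Of 32851 such windows in the table, 1.05% hold the sterol regulatory element motif, 33.8% CCAAT, 32.7% the GC box, 6.02% the E-box and 14% the nuclear receptor element. None of these 5 windows holds the E-box or the nuclear receptor element. A match describes letters only, and the arrays do not tell which Acsl1 start was used.

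All 7 probes were well above background on all 18 arrays. On the mm8 build of the files, the Acsl1 probes lie at chr8:48033237-48033296 (A_51_P463452), chr8:48033545-48033604 (A_52_P597618) and chr8:48034695-48034754 (A_51_P496432). The Acsl3 probe A_51_P511560 lies at chr1:78585414-78585473. The Acsl4 probes lie on the minus strand at chrX:137567023-137567082 (A_51_P268154) and chrX:137564427-137564486 (A_52_P78203). The Acsl5 probe A_52_P593037 is given a span of 589 bases at chr19:55347503-55348091. Levels below are log2 intensities relative to the 75th percentile of each array, and a level of 1 probe is not set against that of another, since probes differ in how brightly they bind. Across mice the Acsl1 probes followed each other closely (Pearson's r 0.924 to 0.986 per pair over 17 or 18 mice), and the Acsl4 probes less so (r 0.724, 18 mice); probes of a gene read the same RNA and are not replicates.

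Some facts of the arrays bear on the results. The 75th percentile of intensity was 179 to 305 on control arrays, 228 to 351 on low-dose arrays and 265 to 354 on high-dose arrays, in the scanner's arbitrary units. Control arrays lay only at positions 1 and 4 of their slides. Low-dose mouse 5 also lay at position 1 and high-dose mice 4 and 6 at position 4. The other dosed arrays lay at positions 2 and 3, so position went in part with group. Of the 8 hepatocyte markers, 7 were well above background on at least 6 arrays, and 0 markers of 11 cell types passed the test in any comparison. High-dose mouse 2 stood apart from its group. Its median correlation over all probes with the other high-dose mice was 0.964, against 0.9725 to 0.9776 for the other 5, and its summed Kupffer cell and neutrophil markers were the highest of the group at 143 and 50.6 (linear units relative to the 75th percentile), against at most 60.7 and 3.27 in the other 5. Its cholangiocyte marker sum was 90.9, against at most 15.9 in the other 5, 28.3 at the low dose and 20.8 in controls. Its liver endothelium and stellate cell sums were the lowest of the group at 18.9 and 34.7, against at least 22.1 and 43.5 in the other 5. The lowest such sums were 22.4 and 38.1 at the low dose and 23.0 and 50.7 in controls. In the low-dose group the Kupffer sum was 33.6 to 92.3 and the neutrophil sum 1.24 to 6.01, and in controls they were 27.1 to 83.1 and 0.994 to 2.68. The part of this in the results was not tested, and fold changes of the 4 genes at the high dose are also given without this mouse.

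Acsl1 was lower in every low-dose mouse than in every control on all 3 of its probes, to about 0.61 to 0.68 of the control level, but the difference did not pass the test over all probes. On A_51_P496432, low-dose mice lay at 6.97 at the lowest, 7.24 at the median and 7.41 at the highest, against 7.57, 7.83 and 7.97 in controls. On A_52_P597618, low-dose mice lay at 4.07, 4.27 and 4.60, against 4.66, 4.96 and 5.26 in controls. On A_51_P463452, low-dose mice lay at 4.44, 4.73 and 5.09, against 5.35, 5.43 and 5.68 in the 5 controls with a usable spot. The spot of control mouse 6 was marked as an outlier by the scanner software and dropped; it read 5.10, also above all low-dose mice. The groups thus did not overlap on any Acsl1 probe, where 1.03% of all probes tested in this comparison separated the groups in the same direction.

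The log2 fold change of Acsl1, low dose against control, was −0.71 (SE 0.29, adjusted p = 0.318) on A_51_P463452. It was −0.56 (SE 0.19, adjusted p = 0.230) on A_51_P496432 and −0.68 (SE 0.27, adjusted p = 0.293) on A_52_P597618 (limma, Benjamini-Hochberg over 25423 probes). The spread entering these errors comes from all 18 arrays, and the high-dose mice were the most scattered. Fitted on the low-dose and control arrays alone, the same fold changes had adjusted p = 0.0434, 0.0489 and 0.0429 and passed. That setting called 142 probes in all, against 57 in the main setting. With all groups but without high-dose mouse 2, only A_51_P496432 passed (adjusted p = 0.0409). Leaving out an array gave 7 to 111 calls over all probes. Within the 4 slides that held both groups, differences were −1.24 to −0.52 on A_51_P463452, −0.86 to −0.19 on A_51_P496432 and −0.94 to −0.62 on A_52_P597618. Because the groups did not overlap, the sign on each slide was fixed beforehand and is not a further result. With normexp background correction the fold changes were −0.61, −0.22 and −0.30 for A_51_P463452, A_51_P496432 and A_52_P597618, where the median of all probes shifted to −0.16, from −0.02 in the main setting. With array brightness as a covariate they were −0.63, −0.48 and −0.65 in the same order, with adjusted p of 0.721 to 0.777.

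At the high dose Acsl1 was scattered. On A_51_P463452, high-dose mice 1 to 6 lay at 5.54, 3.54, 5.37, 4.88, 5.61 and 4.43, against the control range of 5.35 to 5.68. Mice 1, 3 and 5 lay within the control range and mice 2, 4 and 6 below it. The standard deviation was 0.80 at the high dose (n = 6) and 0.14 in controls (n = 5) on this probe, and 0.53 and 0.17 on A_51_P496432 (n = 6 each). On A_52_P597618 mice 1 to 6 lay at 5.02, 3.10, 4.74, 4.54, 5.25 and 4.01, against 4.66 to 5.26 in controls, with the same 3 mice below all controls. On A_51_P496432 they lay at 7.62, 6.27, 7.49, 7.29, 7.77 and 7.38, against 7.57 to 7.97 in controls, and mice 2, 3, 4 and 6 were below all controls. The spots of mice 1 and 5 were saturated on that probe, so their levels there are lower bounds.

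The log2 fold change of Acsl1, high dose against control, was −0.60 (95% interval −1.22 to 0.01), −0.47 (−0.88 to −0.07) and −0.52 (−1.08 to 0.04) on A_51_P463452, A_51_P496432 and A_52_P597618, with adjusted p of 0.690, 0.642 and 0.704 (limma). The intervals are not adjusted for the number of probes, and the value and interval on A_51_P496432 are lower bounds because of the 2 saturated high-dose spots. Without high-dose mouse 2 these values were −0.33, −0.27 and −0.25. High dose against low dose they were 0.11, 0.09 and 0.16, and 0.38, 0.29 and 0.43 without high-dose mouse 2. They were −0.12, −0.13 and −0.04 with normexp, so the direction between the doses was not settled. The saturated spots enter the A_51_P496432 values here too.

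**Figure D1:**
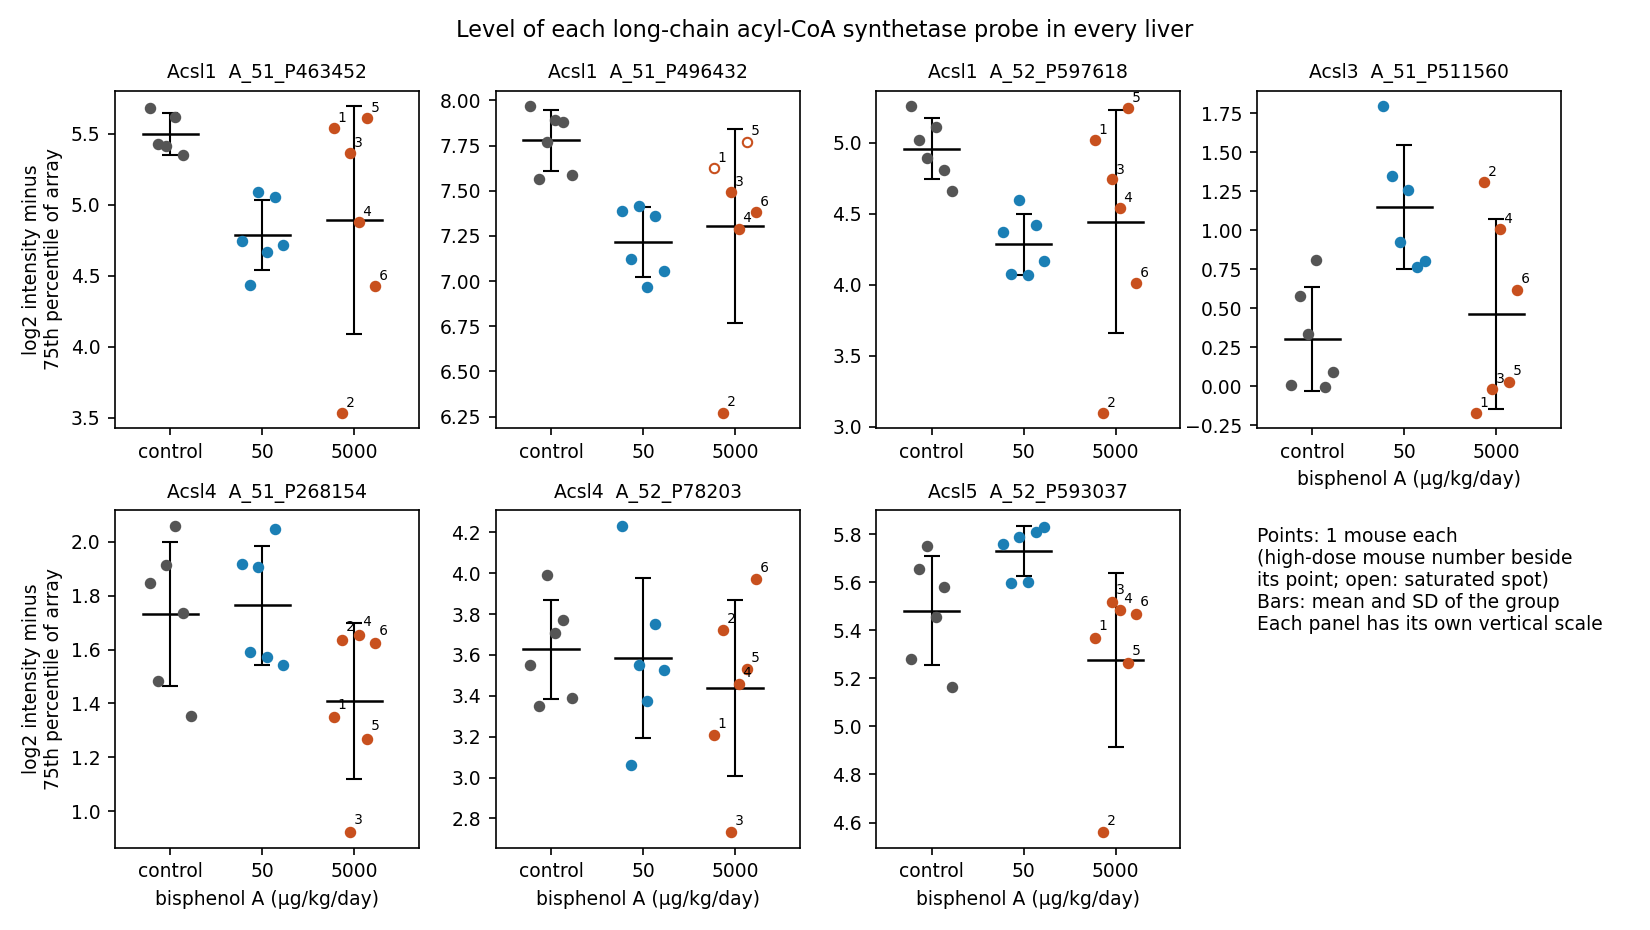
Level of each probe (vertical axis, log2 intensity relative to each array's 75th percentile) in every mouse by dose of bisphenol A (horizontal axis), with the group mean and SD as bars. On the 3 Acsl1 panels all low-dose points lie below all control points, and the high-dose points spread from 3.54 to 5.61 on A_51_P463452.

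Acsl3 had the largest fold change of the 7 probes at the low dose, and it too did not pass the test. Low-dose mice lay at 0.77 at the lowest, 1.09 at the median and 1.80 at the highest, against 0.00, 0.22 and 0.81 in controls. In all, 4 of 6 low-dose mice were above every control, so the groups overlapped. The level was 1.80-fold higher at the low dose, a log2 fold change of 0.85 (SE 0.25, 95% interval 0.31 to 1.38, adjusted p = 0.164, limma). It was higher at the low dose on all 4 slides that held both groups, by 0.69 to 1.30. Apart from control mouse 4 (0.81), every control lay below every low-dose mouse. The signs on the slides were thus largely fixed beforehand and are not a further result. Its fold change stayed between 0.60 and 0.95 and its adjusted p between 0.0914 and 0.724 over all alternatives and arrays left out.

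High-dose mice 1 to 6 had Acsl3 levels of −0.17, 1.31, −0.02, 1.01, 0.03 and 0.62. Mice 2, 4 and 6, the lowest for Acsl1, were the highest for Acsl3. The log2 fold change, high dose against control, was 0.16 (95% interval −0.37 to 0.69), and −0.0094 without high-dose mouse 2. High dose against low dose it was −0.69 (SE 0.25, adjusted p = 0.502), and −0.86 without that mouse (adjusted p = 0.220).

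Acsl4 showed no difference between low dose and control beyond the spread between mice. On A_51_P268154, low-dose mice lay at 1.54 at the lowest, 1.75 at the median and 2.05 at the highest, against 1.35, 1.79 and 2.06 in controls, and the log2 fold change was 0.03 (95% interval −0.28 to 0.35). On A_52_P78203, low-dose mice lay at 3.06, 3.54 and 4.23, against 3.35, 3.63 and 3.99 in controls, with a log2 fold change of −0.04 (95% interval −0.47 to 0.38). Both signs flipped under other settings, the deposited value table among them (−0.11 for A_51_P268154 and 0.04 for A_52_P78203).

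High-dose mice lay at 0.92, 1.49 and 1.65 on A_51_P268154 and at 2.73, 3.49 and 3.97 on A_52_P78203 (lowest, median and highest). They overlapped both other groups on both Acsl4 probes. High dose against control the log2 fold changes were −0.32 (SE 0.15) and −0.19 (SE 0.20), the second turning to 0.04 with normexp, and −0.37 and −0.25 without high-dose mouse 2. High dose against low dose they were −0.35 (SE 0.15, adjusted p = 0.602) and −0.15, and −0.40 and −0.20 without that mouse. On A_51_P268154 the high-dose mice were lower than the low-dose mice on all 5 slides, by differences of −0.65 to −0.10, but on A_52_P78203 they were lower on 3 slides and higher on 2 (−0.64 to 0.22).

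Acsl5 was lower in every high-dose mouse than in every low-dose mouse, with controls between and overlapping both, and no comparison passed the test. High-dose mice lay at 4.56 at the lowest, 5.42 at the median and 5.52 at the highest, against 5.60, 5.77 and 5.83 at the low dose. Controls lay at 5.16, 5.52 and 5.75. The high dose was separated below the low dose on 0.401% of all probes in this comparison. The log2 fold change, high dose against low dose, was −0.45 (SE 0.15, 95% interval −0.76 to −0.15, adjusted p = 0.402, limma), and −0.31 without high-dose mouse 2 (adjusted p = 0.354). Within the 5 slides the differences were −1.23 to −0.08, their sign fixed beforehand by the lack of overlap between the 2 doses. Low dose against control the fold change was 0.25 (SE 0.15, adjusted p = 0.530), with 4 of 6 low-dose mice above every control. High dose against control it was −0.20, and −0.06 without high-dose mouse 2.

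Across the 7 probes, 0 passed an adjusted p of 0.05 in limma in any comparison, where 0.224% of all probes did so for low dose against control, 0% for high dose against control and 0.0433% for high against low dose. At an unadjusted p under 0.05 there were 4 of 7 for low dose against control, where 12.3% of all probes reached it. There were 2 of 7 for high dose against control (7.29% of all probes) and 3 of 7 for high against low dose (7.66%). Since 3 of the 7 probes read Acsl1, these counts are not of independent genes.

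**Figure D2:**
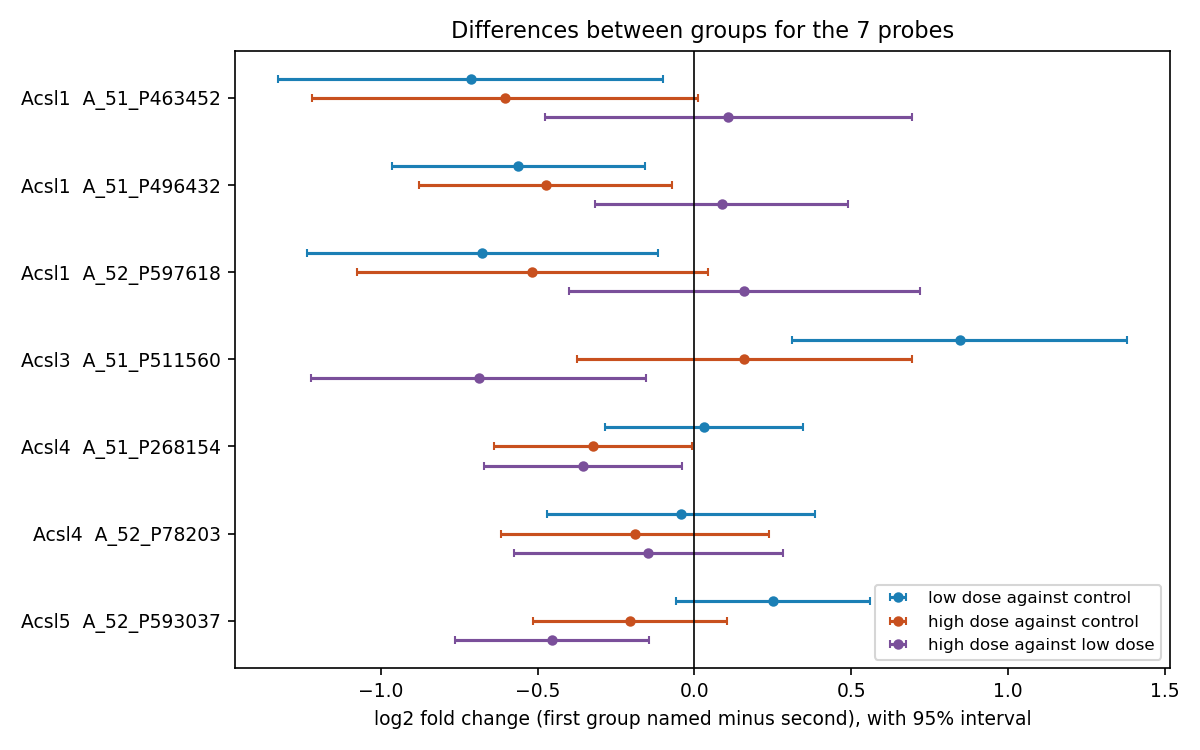
Log2 fold change of each probe (horizontal axis, first group named minus second) with its unadjusted 95% interval, for the 3 comparisons. The low-dose intervals of the 3 Acsl1 probes lie below 0 and that of Acsl3 lies above it (0.31 to 1.38), while 0 of the 21 differences passed after adjustment over all probes.

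Acsl1 and Acsl3 correlated negatively over all mice, and within groups the sign held on every Acsl1 probe only at the high dose. Over the 17 mice with both values (Acsl1 on A_51_P463452), Pearson's r was −0.705 (permutation p = 0.00118, adjusted over the 6 pairs of genes 0.00708) and Spearman's rho −0.664 (permutation p = 0.00455, adjusted 0.0273). Without the 2 mice farthest from the median of Acsl1, high-dose mice 2 and 6, r was −0.809. These values also hold the differences between groups. With each group centred on its mean r was −0.713 (adjusted permutation p = 0.0499) and rho −0.603 (adjusted p = 0.258), so only Pearson's r passed once groups were centred. Without the 2 mice that were farthest after centring, high-dose mice 2 and 5, r was −0.561. With Acsl1 read instead from A_51_P496432 or A_52_P597618, a choice made after seeing the data, r over 18 mice was −0.652 and −0.661 (adjusted permutation p = 0.0157 and 0.0136). In the 6 high-dose mice r was −0.890 on A_51_P463452, −0.838 on A_51_P496432 and −0.842 on A_52_P597618. In the 6 low-dose mice it was −0.523, 0.0595 and −0.212 in the same order of probes. In controls it was 0.149 on A_51_P463452 (5 mice), −0.174 on A_51_P496432 and 0.306 on A_52_P597618 (6 mice each). On A_51_P463452 the control r was positive under every scaling, from 0.149 to 0.825 with normexp. A slide holds at most 4 mice of 3 groups, so no value within slides was computed. With normexp r was −0.477 (adjusted p = 0.104) and with the array median as scale −0.574 (adjusted p = 0.0850). The other 5 pairs had r between −0.164 and 0.360 and adjusted p of 0.384 to 0.694.

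**Figure D3:**
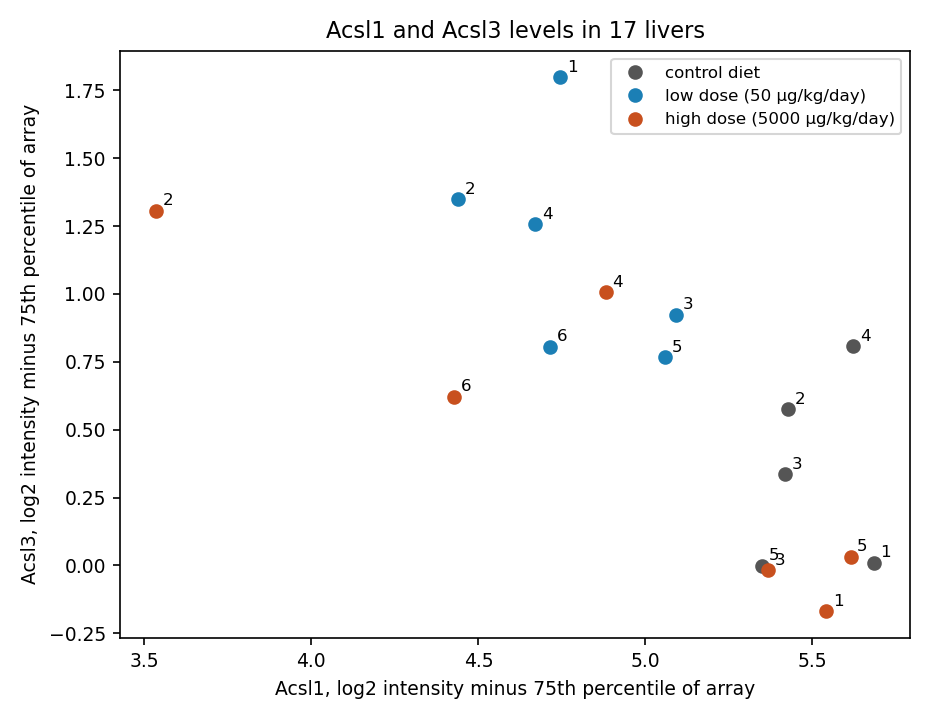
Acsl3 level (vertical axis) against Acsl1 level on A_51_P463452 (horizontal axis), both as log2 intensity relative to each array's 75th percentile, with the mouse number beside each of 17 points. High-dose mice 1, 3 and 5 lie at the lower right near controls, mouse 4 lies among the low-dose mice, mouse 2 far to their left (Acsl1 3.54), and mouse 6 below them (Acsl3 0.62).

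The genes whose levels were most like those of each synthetase were taken by the highest Pearson's r over the same mice, as a description. All points of such an r share the mice, the scaling and high-dose mouse 2. For Acsl1 these were Nceh1, a hydrolase of neutral cholesterol esters (r 0.936), Pithd1 (0.934), Gabarapl1 of the autophagy machinery (0.927) and Chrna2 (0.923), over 17 mice. Within groups the r of these 4 genes was 0.945 to 0.995 at the high dose and 0.168 (Pithd1) to 0.882 at the low dose. In controls it was 0.6 to 0.82. With groups centred the leaders were Zfand6 (0.929) and Cyp8b1 (0.923), the sterol 12α-hydroxylase of bile acid synthesis. For Acsl3 they were the zinc transporter Slc39a6 (0.916), the clock gene Per2 (0.899), Tfg (0.893) and the ubiquitin-conjugating enzyme Ube2g2 (0.886), over 18 mice, and Slc39a6 and Ube2g2 led again with groups centred (0.891 and 0.878). Within groups the r of the 4 genes with Acsl3 was 0.924 to 0.995 at the high dose and 0.742 to 0.95 at the low dose. In controls it was 0.395 (Per2) to 0.745. Per2 had a log2 fold change of 1.62 at the low dose against control (adjusted p = 0.0936, limma).

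For Acsl4 on A_52_P78203 they were Crlf3 (0.895), the nucleolar protein Nop56 (0.892), the mRNA export factor Alyref (0.868) and Fam118b (0.868), and with groups centred Crlf3 (0.908) and the coactivator Ncoa3 (0.903). For Acsl5 they were malic enzyme, listed as Mod1, an older symbol of Me1 in RefSeq (0.868), the acetyl-CoA synthetase Acss2 (0.864), the elongase Elovl5 (0.854) and citrate synthase Cs (0.829). Within groups the r of the 4 genes with Acsl5 was 0.898 to 0.998 at the high dose and 0.694 to 0.848 at the low dose. In controls it was 0.418 (malic enzyme) to 0.772. The first 4 genes for Acsl4 had r of 0.816 to 0.994 within groups. Malic enzyme, Acss2 and Elovl5 supply or use acetyl-CoA, NADPH or acyl-CoA in fatty acid synthesis and elongation. With groups centred the leaders for Acsl5 were Zfp764 (0.882) and Acat1 (0.877). Their r with Acsl5 was 0.949 and 0.957 in the high-dose group and 0.903 and 0.899 in controls, but −0.29 and 0.129 in the low-dose group.

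The genes that make, split and use acyl-CoA were read from 4 lists, with the brightest probe of each gene. Of 20 other acyl-CoA synthetases 16 were measured, and at the low dose 9 were higher and 7 lower than in controls, with 0 past the test and a median log2 fold change of 0.03. Among them, chosen after their values were seen, Aacs, which activates acetoacetate, had a fold change of 1.88 (adjusted p = 0.0903), and Slc27a2, a very long-chain synthetase, one of −0.69 (adjusted p = 0.0722). The low-dose mice of Slc27a2 all lay below controls, a separation that 1.03% of all probes showed in that direction. Of 22 thioesterases and binding proteins 19 were measured, with 6 higher, 13 lower, 0 past the test and a median of −0.20. The median of all probes was −0.02, with 46% of them higher and 54% lower.

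Of 20 genes of glycerolipid synthesis, not all of which use acyl-CoA themselves, 2 rose at the low dose and 0 fell. Over all probes 0.224% passed, with 40 higher and 17 lower. In all, 12 of the 20 genes were higher and 8 lower, with a median of 0.07. Gpam, which starts glycerolipid synthesis on mitochondria, averaged 1.41 at the low dose and −0.63 in controls, a log2 fold change of 2.04 (SE 0.32, adjusted p = 0.0174). Lpin1, a phosphatidate phosphatase, averaged 2.39 at the low dose and 1.31 in controls, a fold change of 1.08 (SE 0.21, adjusted p = 0.0454). Gpam passed in 28 of 33 settings and Lpin1 in 15 of 33, and neither passed with slide as a block (adjusted p = 0.123 and 0.177) or with array brightness as a covariate (0.364 and 0.479). Gpam also lost the call with normexp (adjusted p = 0.0742) and without control mouse 5 (adjusted p = 0.0566) or low-dose mouse 6 (0.0541), and Lpin1 with normexp (0.0930), with the array median as scale (0.0919), with no filter on dim probes (0.0742) and without any of 12 mice, left out in turn.

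Of 20 oxidation genes 18 were lower at the low dose than in controls and 2 higher, where 54% of all probes were lower. Of these genes 0 passed the test, and their median was −0.26. With normexp the split was 10 and 10 with a median of 0.00. Cpt1a, which moves acyl groups to carnitine for entry into mitochondria, had fold changes of −0.69 (adjusted p = 0.151) on A_51_P427674 and −0.80 (adjusted p = 0.0961) on A_52_P219753. The second passed with only the 2 groups fitted (0.0429) or with array weights (0.0485). These settings called 142 and 226 probes in all, against 57 in the main setting. Pdk4, a kinase that restrains pyruvate dehydrogenase, had 0.16 (adjusted p = 0.928). Fasn, the fatty acid synthase that supplies new palmitate, rose on A_52_P100252 (log2 fold change 2.34, SE 0.36, adjusted p = 0.0149) and had 0.14 on A_51_P321126, which was saturated on 10 arrays. The Fasn call on A_52_P100252 was lost with slide as a block (adjusted p = 0.123), with array brightness as a covariate (0.364), and without control mouse 5 (0.0524) or low-dose mouse 6 (0.0528).

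At the high dose against control 0 genes of the 4 lists passed the test, as did 0% of all probes, of which 52.2% were lower. The other synthetases had 6 higher and 10 lower (median −0.02), the thioesterases and binding proteins 4 and 15 (−0.12), glycerolipid synthesis 11 and 9 (0.04) and oxidation 3 and 17 (−0.19); with normexp the thioesterases and binding proteins had 9 and 10 and oxidation 4 and 16. With the array median as scale, glycerolipid synthesis turned to 9 higher and 11 lower (median −0.02). Without high-dose mouse 2 the splits were 9 and 7 (median 0.07), 6 and 13 (−0.05), 13 and 7 (0.05) and 6 and 14 (−0.10), in the same order of lists. Gpam had a log2 fold change of 0.60 (adjusted p = 0.719), and −1.44 at the high against the low dose (adjusted p = 0.145); without that mouse these were 0.63 and −1.41. The comparisons share the control or dosed mice and are set side by side only.

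**Figure D4:**
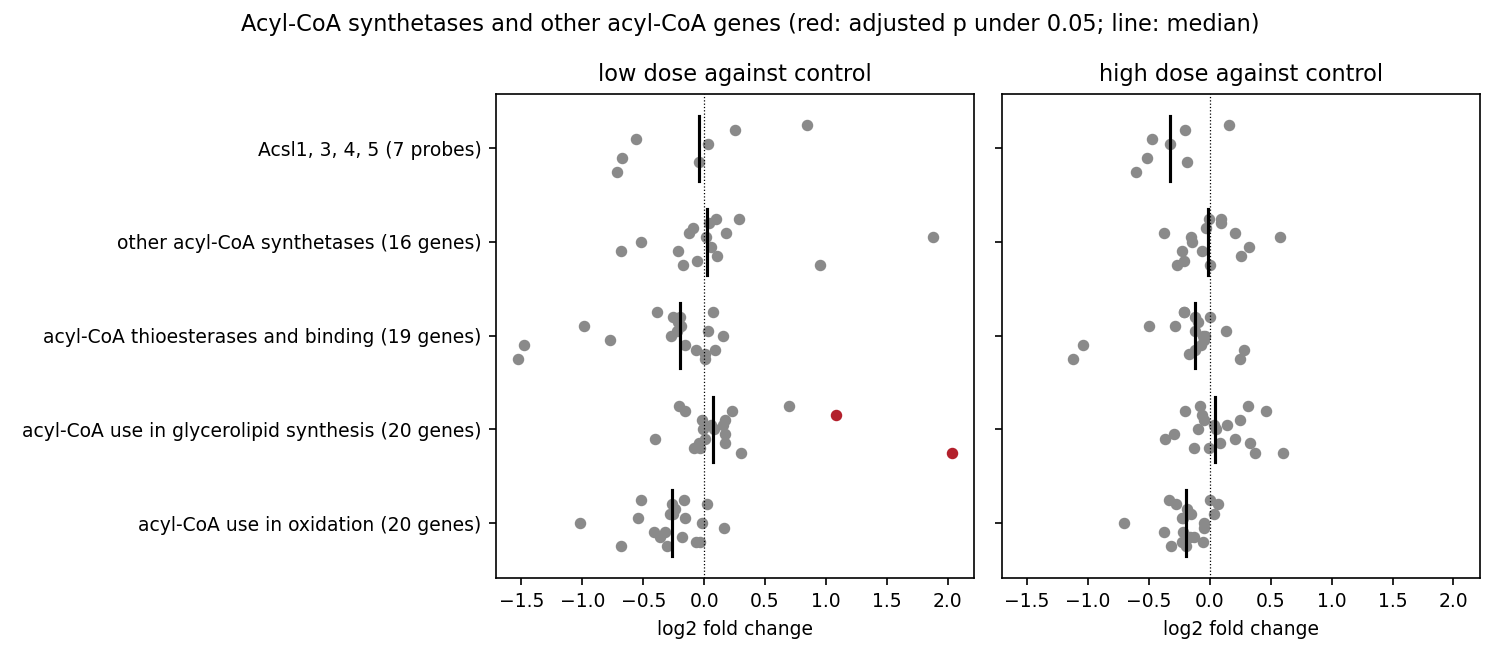
Log2 fold change (horizontal axis) of the 7 probes and of the measured genes of each list, 1 point each, for low dose against control on the left and high dose against control on the right, with the median as a line. In the left panel Gpam (2.04) and Lpin1 (1.08) are the only points past the test. There, 18 of 20 oxidation genes lie left of 0 (10 of 20 with normexp, not drawn), where 54% of all probes were lower.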

How the data were processed

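The deposited scanner files, made by the authors with Agilent Feature Extraction 9.5 per the submitters' processing notes, give the background-subtracted spot intensity (gProcessedSignal) and the raw spot and local background intensity, in arbitrary units. A table of log2 values for 22514 probes was also deposited, and all 7 described here are in it. Its scale tracked the scanner intensity (median r 0.986 per array, column medians 7.91 to 7.94), and its further processing is not given in the sources used here beyond the naming of limma.

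Here log2 intensity minus the 75th percentile of each array was used, after dropping control and outlier-marked spots. Probes well above background on at least 6 of 18 arrays were kept (25427, of which 25423 had enough values to test). Groups were compared per probe with limma 3.58.1 in R 4.3.3 (lmFit and eBayes, 18 arrays, 3 groups, 2-sided), adjusted by Benjamini-Hochberg over all probes tested, with a threshold of 0.05. The number of arrays limits the precision. Symbols were updated by accession through RefSeq (GRCm38.p6, names only): 23374 probes matched. Named were all probes of the 4 genes, the 4 genes most like each (2 with groups centred), list genes that passed, and Cpt1a, Gpam, Fasn and Pdk4 whatever their values; 1 further gene that this rule names is not reported here. The members, lists and tests were chosen with earlier results of these data known. The procedure was tested on simulated data. Alternatives were 14 settings of scaling, background, filter and model, and each of 18 arrays left out; correlations used 100000 permutations.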

Additional observations from a re-analysis of the deposited data

Results flagged for a closer look

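High-dose mouse 2 lay far below its group on 2 of the 21 sets of 6 or 5 mice that were examined (7 probes in 3 groups). Its level was 6.27 on the Acsl1 probe A_51_P496432, where the other high-dose mice lay at 7.29 to 7.77, and 4.56 on the Acsl5 probe A_52_P593037, where they lay at 5.26 to 5.52. Chance marks about 1 in 20 such sets. This mouse also had the highest summed Kupffer cell, neutrophil and cholangiocyte markers of its group, and the lowest summed endothelial and stellate cell markers. Its sum of the markers listed for intestine was the lowest of the group at 19.3. That sum was 76.7 to 164 in control livers, so it is not taken as a measure of intestinal tissue. Whether these go together was not tested.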

How the results depend on the processing

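Over 14 alternatives and 18 arrays left out, 640 of 663 log2 fold changes of the 7 probes kept their direction and side of the threshold, 4 passed and 19 turned sign. For low dose against control, 3 of the 7 probes were called with only the 2 groups compared, where 142 of all probes were. With an array left out 0 to 1 of the 7 were called (1 without high-dose mouse 2). With the others, and in both other comparisons, 0 were. Mouse numbers are not stated to pair mice. Same-numbered pairs correlated at −0.288 to 0.331 and differently numbered pairs at −0.281 to 0.34, ranges that cannot decide whether mice were paired. With the mouse number as a replicate block 0 of 7 probes were called in each comparison. Lpin1 and the Fasn probe A_52_P100252 lost their calls under that block (adjusted p = 0.0688 and 0.0550, limma). For low dose against control, Acsl4 A_52_P78203 turned to 0.34 with normexp and 0.039 in the value table, and ranged from −0.17 to 0.061 with an array left out (turned without control 3 or low-dose 2). Acsl4 A_51_P268154 turned to −0.11 in the value table and −0.057 with slide as a block, and ranged from −0.045 to 0.097 (turned without control 2 or 6 or low-dose 5). High dose against control turned to 0.036 for A_52_P78203 with normexp and to −0.083 for Acsl3 with the brightness covariate; Acsl3 ranged from −0.0094 (without high-dose 2) to 0.29 with an array left out. Acsl1, high against low dose, turned to −0.12, −0.13 and −0.040 with normexp, and ranged from −0.035 to 0.38, −0.0064 to 0.29 and −0.0011 to 0.43 on A_51_P463452, A_51_P496432 and A_52_P597618, lowest without high-dose 5 and highest without high-dose 2. Correlations changed as follows: Acsl1 with Acsl3, −0.574 with the array median and −0.477 with normexp; Acsl1 with Acsl4, 0.0552 with Acsl1 read from A_51_P496432 (an alternative chosen after seeing the data). With normexp Acsl1 with Acsl4 gave 0.0687, Acsl1 with Acsl5 0.591 (adjusted p = 0.0404) and Acsl4 with Acsl5 0.644 (adjusted p = 0.0273). For Acsl1 with Acsl5 rho was then 0.199 (adjusted permutation p = 0.532), and r was −0.0677 without high-dose mice 6 and 2. For Acsl4 with Acsl5 rho was 0.548 (adjusted permutation p = 0.0615), and r was 0.317 without control mouse 6 and low-dose mouse 1. With groups centred the changes were Acsl3 with Acsl5, −0.336, and Acsl4 with Acsl5, −0.0114. The cause was not tested. Over all probes, low dose against control gave 57 calls (40 higher, 17 lower), with 0 (brightness covariate) to 226 (array weights) over the alternatives, 13 with the replicate block, 4 with slide as a block and 7 to 111 with an array left out. The split was 41 and 8 with quantile normalisation, 14 and 1 with the array median, 7 and 0 with normexp and 57 and 14 in the value table. High against low dose gave 11 calls, with 0 to 34 over the alternatives and 0 to 17 with an array left out. Calls among the 4 lists numbered 2 for low dose against control, with 0 to 3 over the alternatives and with an array left out.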
